A study of Homo sapiens with 2 samples.

Results

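The BTB and SCAN zinc finger regulators are transcription factors that carry a BTB or a SCAN domain next to DNA-binding zinc fingers. They were chosen by name: every probe set that the platform annotation pairs with exactly 1 symbol, where that symbol is ZBTB, ZSCAN or ZKSCAN followed by a digit. The rule found 164 probe sets of 75 genes, out of 41097 probe sets with 1 symbol and 19775 genes on the array. Of these genes 66 are zinc finger genes, namely 41 ZBTB, 18 ZSCAN and 7 ZKSCAN genes. The other 9 share only the name: antisense and divergent transcripts, 1 pseudogene and ZBTB8OS, which encodes no zinc finger. The zinc finger genes are described by family, and genes named ZNF are not members.

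Both samples were stable lines of C33-A, an established human cell line from a cervical carcinoma that grows as an adherent epithelium. The CA9 line carried the human full-length CA9 cDNA in pcDNA3.0, an expression vector with a strong viral promoter; CA9 encodes carbonic anhydrase IX, an enzyme of the cell surface that hydrates carbon dioxide. The vector line, labelled mock-transfected, carried empty vector DNA. Both were kept in RPMI medium with serum and antibiotics, and RNA was taken on the fourth day after seeding. There was 1 array for each line, and the sources used here do not say whether a line was 1 clone or a pool. No difference below has a replicate check, so none has a p-value, and differences between cultures of 1 line cannot be told apart from those between the lines.

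In a BTB zinc finger protein, the BTB domain at the amino end pairs 2 molecules and binds co-repressors, while the fingers at the other end choose the DNA sites. The best known members steer blood cell development, silence methylated DNA or set the pace of the cell cycle. The SCAN domain also joins proteins to each other but is not known to repress by itself. Many ZKSCAN proteins carry a KRAB domain as well, a type of domain that recruits the co-repressor TRIM28 in other zinc finger proteins. Whether ZKSCAN proteins recruit it was not examined here.

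Intensities, which are on a linear scale, had a median of 41.8 in the CA9 line against 40.1 in the vector line. The floor was set at 40.8, the median over both arrays, and a gene was measurable if the higher of its 2 arrays lay above it. A gene is described by its probe set with the highest mean, and its difference is the log2 intensity in CA9 cells less that in vector cells. A difference of 1 or more in size, 2-fold, was called. Of the 13823 measurable genes 1.35% were called, and probe sets of 1 gene disagreed with an SD of 0.31 on the log2 scale. The hybridisation spike-ins were higher on the CA9 array in 17 of 18 probe sets, with a median difference of 0.41, and their part in the results was not tested. Of 5 epithelial markers, EPCAM and CDH1 lay below the floor in both lines and KRT8, KRT18 and KRT19 were measurable, with differences from 0.18 to 0.57. Blood markers were dim or mixed: of 4 listed, CD3E lay below the floor, HBB was at 71.3 against 78.9, CD14 at 57.1 against 36.9 and PTPRC at 30.1 against 58.1, and their part in the results was not tested. The transgene CA9 was not analysed here.

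The members as a whole had slightly lower signals in the CA9 line, and almost none was far apart. Of the 66 zinc finger genes 58 were measurable, 53 of them on both arrays. The other 5 (ZBTB3, ZBTB14, ZBTB16, ZSCAN20 and ZSCAN31) passed only through the line where they were higher, and 8 lay below the floor in both lines. On the deposited values ZBTB16 alone passed 2-fold, where 0.651% of all measurable genes were called higher and 0.694% lower. Its vector value of 25.2 lies below the floor, against which it was at least 1.29-fold higher, so no member was shown to be 2-fold apart in its brightest probe set. At the looser size of 1.5-fold, 10 of the 58 were lower, against 4.74% of all measurable genes, and 2 were higher, against 5.29%, of which ZBTB32 had both arrays above the floor and ZBTB16 did not. Differences lay below 0 in 43 of the 58, against 53.0% of all measurable genes.

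The median difference was -0.20 over 37 measurable ZBTB genes, -0.28 over 14 ZSCAN genes and -0.28 over 7 ZKSCAN genes, where that of all measurable genes was -0.03. With no floor, so that all 66 genes entered, the medians were -0.17, -0.13 and -0.28. Over the scalings tried the ZBTB median ran from -0.26 to -0.14, the ZSCAN median from -0.34 to -0.28 and the ZKSCAN median from -0.35 to -0.28. The median of all measurable genes moved too. It was -0.095 with equal medians of the arrays, 0.002 with quantile normalization and 0.004 with the lowess curve removed. Related families outside the rule had medians below 0 as well: 331 measurable ZNF genes had a median of -0.16, with 64.7% below 0 and 14.5% at least 1.5-fold lower. The 26 measurable KLHL genes, which have a BTB domain and no zinc fingers, had a median of -0.13, with 15.4% at least 1.5-fold lower. No difference between these families was tested.

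**Figure D1:**
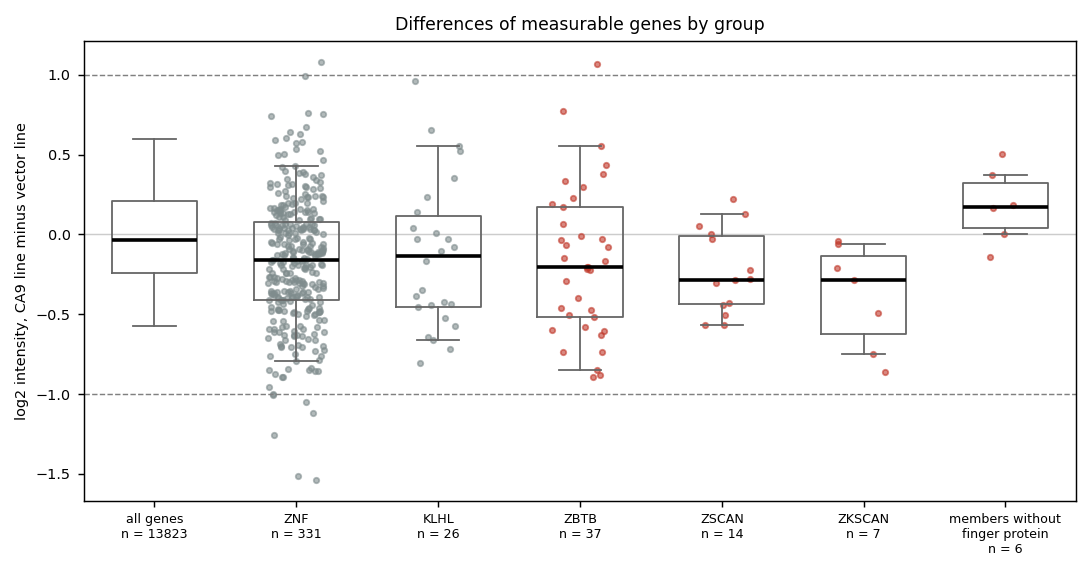
Differences (log2 intensity, CA9 line minus vector line) of measurable genes, with a point per gene except for all genes, a box from the lower to the upper quartile, a line at the median, whiskers from the 5th to the 95th percentile and dashed lines at 2-fold. The ZBTB median lies at -0.20, the ZSCAN and ZKSCAN medians both at -0.28 and the ZNF median at -0.16, and the 1 member point past 2-fold is ZBTB16, whose vector value lies below the floor.

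The ZBTB genes of blood cell development held ZBTB32, the only member at least 1.5-fold higher in the CA9 line with both arrays above the floor, and ZBTB16, which was above the floor in the CA9 line only. ZBTB16, or PLZF, a repressor needed by blood and germ-line stem cells and fused to the retinoic acid receptor in a form of leukaemia, was at an intensity of 52.8 in the CA9 line against 25.2 in the vector line. The CA9 line was the higher one for ZBTB16, and the gene has no other probe set. ZBTB32, a repressor of lymphocyte activation, was at 73.9 in the CA9 line against 43.3 in the vector line, 1.71-fold higher. Both values of ZBTB32 lie above the floor, though that of the vector line only just.

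The other genes of this role were closer to 0. ZBTB7B, which commits thymocytes to the helper fate, was at 154 against 125, a difference of 0.30, and its second probe set gave 0.45. ZBTB46, a marker of classical dendritic cells, had a difference of 0.19 at 61.2 against 53.5, whereas its other 2 probe sets lay at 0.31 and -0.48. ZBTB25 was nearly equal, at 71.1 against 74.4. On the lower side, ZBTB1, needed for lymphocyte development, was at 157 against 217, a difference of -0.47. Its other probe sets lay below the floor in both lines, and its average was -0.15. ZBTB24, mutated in a syndrome of immunodeficiency with loss of centromeric DNA methylation, was at 135 against 205, a difference of -0.60, with a second probe set at -0.35. So 4 of the 7 genes of this role had higher and 3 had lower values in the CA9 line. Of all measurable genes 53.0% were lower, and this group was drawn up after the files were seen.

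The methyl-CpG binding members did not share a direction. ZBTB33, known as Kaiso, which binds methylated DNA through its fingers, was at 539 against 597, a difference of -0.15. ZBTB4 had 171 against 146, a difference of 0.23, with 0.07 in its second probe set. ZBTB38 was lower in its brightest probe set, at 107 against 197, a difference of -0.88 or 1.84-fold. Its other 3 probe sets above the floor gave -0.20, 0.18 and 0.30, and the average over all 5 was -0.09, so that the lower value of ZBTB38 rests on 1 probe set.

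Members tied to the cell cycle and Myc included the 2 genes whose probe sets disagreed most. ZBTB17, or MIZ1, the partner through which Myc represses genes, had 119 against 137 in its brightest probe set, a difference of -0.20. Its second probe set had 122 against 46.2, a difference of 1.40, and the average was 0.60. ZBTB7A, also called LRF, a repressor in erythroid cells and of glycolysis genes, was at 128 against 113, a difference of 0.17. Its other probe sets above the floor gave -0.16, 0.42 and 1.27, the last at 117 against 48.6 in a probe set named _x_at, which can bind other transcripts too. Neither gene has a direction that its probe sets share. ZBTB5, a repressor of the cell cycle inhibitor gene CDKN1A, was at 298 against 446, a difference of -0.58 and just short of 1.5-fold. ZBTB2, which acts on the same gene, was at 97.0 against 113, a difference of -0.22.

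**Figure D2:**
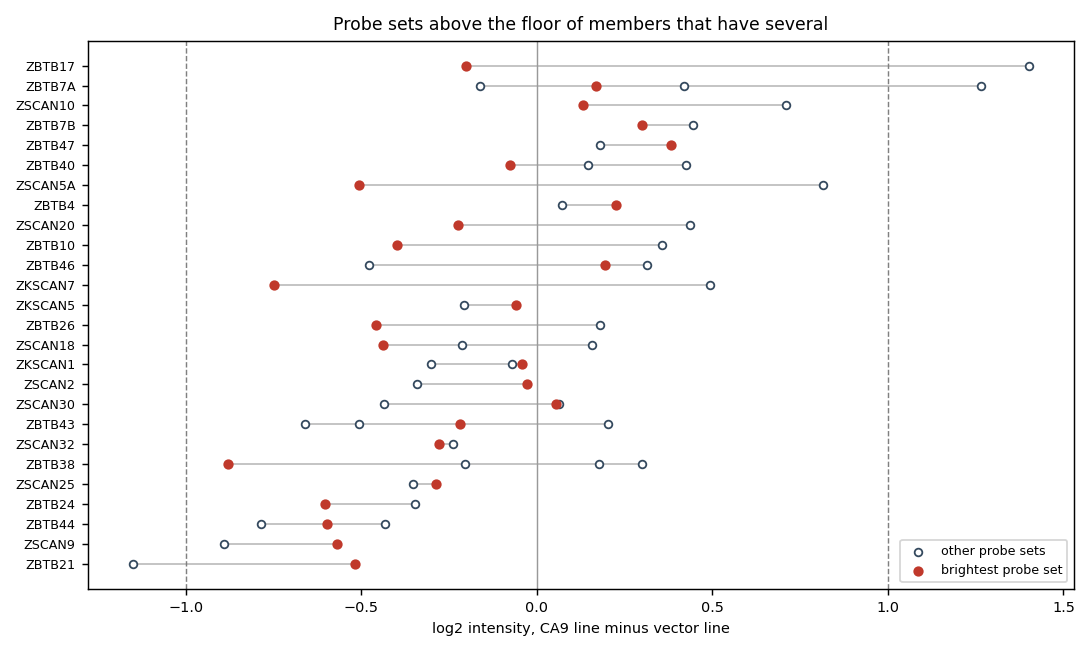
Differences (log2 intensity, CA9 line minus vector line) of each probe set above the floor for the 26 zinc finger members that have at least 2 such probe sets; filled points are the brightest probe set, open points the others, and dashed lines mark 2-fold. All probe sets of a gene lie on 1 side of 0 in 13 of the 26, and ZBTB17 and ZBTB7A span 1.60 and 1.43.

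Agreement between probe sets was lower here than over the array. The pooled SD of the differences around the mean of the gene was 0.45 over the 64 probe sets of these 26 members, against 0.31 over all 6186 genes with several probe sets above the floor. These probe sets read 1 RNA on 1 array per line and are no replicates. Among the 26, all probe sets above the floor lay on the lower side for ZBTB44, ZBTB21, ZBTB24, ZSCAN9, ZSCAN2, ZSCAN25, ZSCAN32, ZKSCAN1 and ZKSCAN5. They lay on the higher side for ZBTB7B, ZBTB47, ZBTB4 and ZSCAN10. ZBTB10, ZBTB26, ZKSCAN7 and ZSCAN5A had probe sets on both sides. Of the 164 member probe sets 9 had exactly the same value on both arrays, against 2.61% of all probe sets, and 2 of these 9 lay above the floor.

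In a further group, mostly tied to GC-rich promoters or telomeres, 4 of 5 members were below 0, against 53.0% of all measurable genes. ZBTB21, which represses transcription and binds ZBTB14, was at 101 against 145 in its brightest probe set and at 54.6 against 121 in its second. Both probe sets of ZBTB21 were lower, with differences of -0.52 and -1.15, the second past 2-fold, and the average was -0.83. ZBTB14, or ZF5, first described as a repressor at the Myc promoter, was at 39.2 against 65.5, lower in the CA9 line by at least 1.60-fold when set against the floor, and its second probe set was dim in both lines. ZBTB10, a repressor of SP factors, was at 93.4 against 123, a difference of -0.40, but its second probe set was at 83.2 against 64.9, a difference of 0.36. ZBTB48, or TZAP, which binds telomere repeats and trims long telomeres, was at 155 against 123, a difference of 0.34. ZBTB7C, the third of the ZBTB7 paralogs, was at 46.2 against 51.9 with a difference of -0.17.

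Developmental members were near 0 or dim. ZBTB18, a repressor needed for cortical neurons and muscle, was at 139 against 160.3, a difference of -0.20. ZBTB45 was at 129.8 against 124, a difference of 0.07. ZBTB20, a repressor in liver and hippocampus, has 12 probe sets, and all of them lay below the floor in both lines, the brightest at 39.0 against 38.3. ZBTB42, from muscle, was also below the floor.

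Of the 18 ZBTB genes grouped here as little described, a group drawn up after the files were seen, 16 were measurable. Of these, 13 were below 0, against 53.0% of all measurable genes, and 5 were at least 1.5-fold lower, against 4.74%. ZBTB41 was at 43.4 against 80.5, a difference of -0.89 or 1.85-fold. ZBTB34 was at 47.5 against 85.8, a difference of -0.85. ZBTB3 was at 40.3 against 67.1 and at least 1.64-fold lower against the floor. These 3 genes had CA9 signals at or close to the floor, so their differences rest on dim values. ZBTB8A was at 114 against 177, a difference of -0.63. ZBTB44 was lower in all 3 of its probe sets above the floor, at 182 against 275, 115 against 198 and 41.1 against 55.5. Its differences were -0.60, -0.79 and -0.43.

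Smaller differences filled the rest of this set. Those of ZBTB11, ZBTB26, ZBTB9 and ZBTB43 were -0.50, -0.46, -0.29 and -0.22 on the log2 scale. ZBTB40, ZBTB49, ZBTB22 and ZBTB39 lay between -0.08 and -0.01, and ZBTB40 and ZBTB22 turned above 0 with quantile normalization and with the lowess curve removed. The average over the 3 probe sets of ZBTB40 was 0.16. On the higher side were ZBTB47 at 0.38, ZBTB37 at 0.44 and ZBTB12 at 0.56, the last at 72.1 against 49.1. ZBTB6 and ZBTB8B were below the floor in both lines.

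Sequence near the start sites is shown for ZBTB34, 1 of the lower ZBTB genes, and ZBTB32, the higher ZBTB gene with both lines above the floor. These are RefSeq windows of 300 bases, 250 before to 50 after the start, on build GRCh38.p14, both on the plus strand at chr9:126860389-126860688 and chr19:35704308-35704607. Capitals mark the GC box GGGCGG, the letters CCAAT and the letters CGGAAGTG on either strand; none of these overlap one another.
ZBTB34: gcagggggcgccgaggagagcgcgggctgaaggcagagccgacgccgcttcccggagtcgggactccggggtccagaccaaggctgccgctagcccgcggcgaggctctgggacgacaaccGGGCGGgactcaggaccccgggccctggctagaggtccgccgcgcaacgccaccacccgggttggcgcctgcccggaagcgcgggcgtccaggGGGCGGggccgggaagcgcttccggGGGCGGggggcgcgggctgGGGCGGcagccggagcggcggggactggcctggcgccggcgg
ZBTB32: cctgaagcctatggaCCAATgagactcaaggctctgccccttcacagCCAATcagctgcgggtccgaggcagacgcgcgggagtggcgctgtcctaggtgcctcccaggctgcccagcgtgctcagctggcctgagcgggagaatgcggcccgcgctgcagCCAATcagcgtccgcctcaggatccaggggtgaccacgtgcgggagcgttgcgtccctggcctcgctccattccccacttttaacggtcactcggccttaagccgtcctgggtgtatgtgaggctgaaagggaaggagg
The ZBTB34 window held 4 GC boxes and 42 CG dinucleotides, and that of ZBTB32 no GC box, 3 CCAAT and 21 CG. Windows were found for 57 of the 66 zinc finger members, several for some genes. A GC box lay in a window of 32 of 35 ZBTB genes (91.4%), against 48.3% of all 27305 genes in the table. The letters TCCTGCNA, a site bound by Kaiso, lay in windows of 5 ZBTB genes (14.3%), against 5.75% of all genes, and genes with more windows had more chances to hold a match. ZBTB38 and ZBTB47 were among these ZBTB genes. Counted by window in place of by gene, TCCTGCNA lay in 5.77% of 104 windows of all zinc finger members, against 4.69% of all 35116 windows. The GC box lay in 59.6% of the member windows, against 45.0% of all windows. A match says only that these letters are there.

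The ZSCAN genes had differences from -0.57 to 0.22. Of the 18 genes 14 were measurable, and 10 were below 0, where 53.0% of all measurable genes were. None reached 1.5-fold in either direction, where 4.74% of all measurable genes were lower and 5.29% higher by that size. ZSCAN18, a gene often silenced by methylation in tumours, was at 271 against 367, a difference of -0.44, with -0.21 and 0.16 in its other probe sets. ZSCAN5A was at 156 against 222, a difference of -0.51, but its second probe set was at 99.9 against 56.8, a difference of 0.81. ZSCAN32 was lower in both probe sets, at -0.28 and -0.24, as was ZSCAN25, at -0.29 and -0.35. ZSCAN22 had exactly 83.4 on both arrays.

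Values above 0 were few in this family. ZSCAN29 was at 117 against 99.8, a difference of 0.22. ZSCAN10, a factor of pluripotent stem cells, was at 47.2 against 43.1, a difference of 0.13, with a second probe set at 0.71 whose vector value lies below the floor. ZSCAN30 was at 0.06, and at -0.0063 once both arrays were given 1 median. ZSCAN2 was nearly equal at 80.0 against 81.6, and ZSCAN20 was at 36.3 against 42.4, a difference of -0.22, but its second probe set, at 44.4 against 32.8, gave 0.44 and its average was 0.16. ZSCAN4, which extends telomeres in early embryos and stem cells, was below the floor in both of its probe sets, as were ZSCAN1, ZSCAN12 and ZSCAN23.

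All 7 ZKSCAN genes were measurable on both arrays and below 0, against 53.0% of all measurable genes, though ZKSCAN1 turned to 0.07 with quantile normalization and with the lowess curve removed. ZKSCAN8 was at 104 against 189, a difference of -0.86 or 1.82-fold. Its other probe sets lay below the floor in both lines, at -0.38 and 0.03, and its average was -0.40. ZKSCAN7 was at 51.4 against 86.3, a difference of -0.75, but its second probe set was at 72.5 against 51.5, a difference of 0.49. ZKSCAN3, a repressor of autophagy and lysosome genes, was at 67.6 against 95.3, a difference of -0.49. Its other 3 probe sets lay below the floor in both lines. ZKSCAN2 was at 129.8 against 158, a difference of -0.28, and ZKSCAN4 at 43.9 against 50.8, a difference of -0.21. ZKSCAN5 and ZKSCAN1, the latter a source of an abundant circular RNA, had differences of -0.06 and -0.04 and stayed below 0 in each of their probe sets above the floor.

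**Figure D3:**
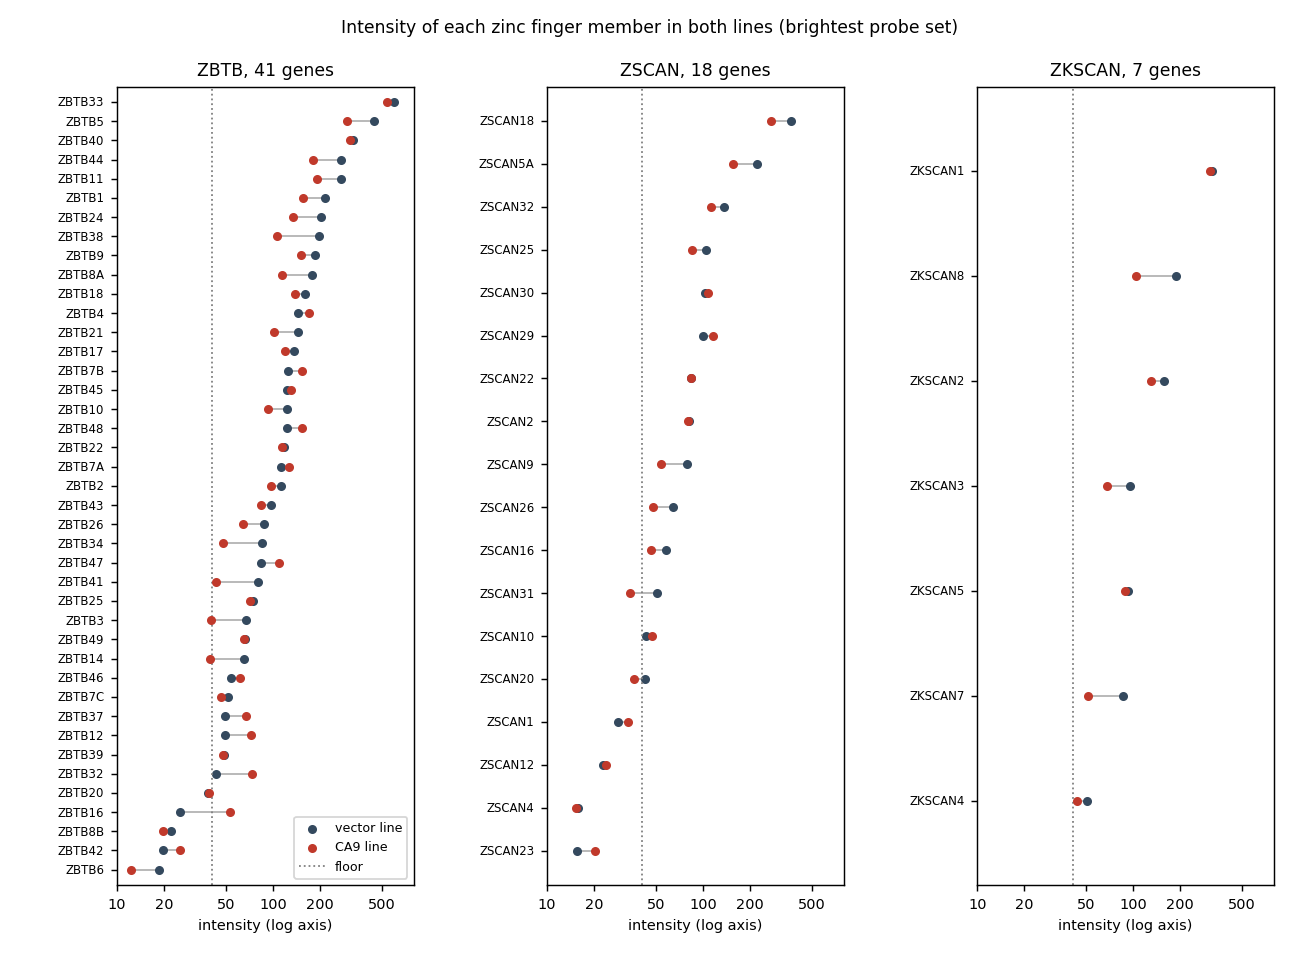
Intensity (log axis) of the brightest probe set of each zinc finger member in the CA9 line and the vector line, 1 array each, with the floor of 40.8 as a dotted line. Probe sets respond differently, so the order of genes is not an order of expression; ZBTB41, ZBTB38, ZBTB34 and ZKSCAN8 show the widest shifts to lower values, ZBTB32 and ZBTB12 shift to higher values, and ZBTB16 crosses the floor.

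The lower SCAN genes included a run of neighbours on chromosome 6. In the gene order of RefSeq, 9 ZSCAN and ZKSCAN genes lie close together there. The 7 that were measurable were all below 0, against 53.0% of all measurable genes. They ran from -0.86 for ZKSCAN8 to -0.21 for ZKSCAN4, with a median of -0.49. Between these ends were ZSCAN31 at -0.57, ZSCAN9 at -0.57, ZKSCAN3 at -0.49, ZSCAN26 at -0.43 and ZSCAN16 at -0.30. The second probe set of ZSCAN9 gave -0.89, at 31.3 against 58.0, and ZSCAN31 was at 33.9 against 50.3, a gap of at least 1.23-fold from the floor. ZSCAN12 and ZSCAN23, at the end of the run, lay below the floor.

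The same direction held for PGBD1, a SCAN domain gene without a member's name within the run, at 45.4 against 53.9 with a difference of -0.25. Among genes with a probe set of 1 symbol that start within the run, NKAPL was the only other one besides the members, and it lay below the floor. The 14 measurable SCAN genes elsewhere had a median of -0.14, with 10 below 0. None of the run reached 2-fold, and 1 was at least 1.5-fold lower, where 4.74% of all measurable genes were. The difference between the run and the SCAN genes elsewhere was not tested. Signals were mostly low in the run, as for ZSCAN26 at 47.7 against 64.1.

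**Figure D4:**
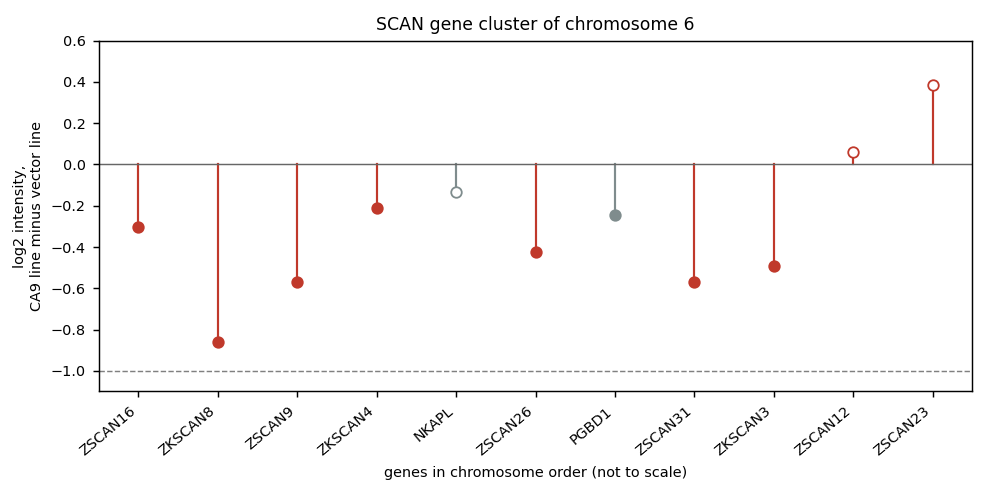
Differences (log2 intensity, CA9 line minus vector line) of the genes of the chromosome 6 run in their order, with members in red, other genes in grey, open circles for genes below the floor in both lines and a dashed line at 2-fold. The 7 measurable members lie between -0.86 and -0.21.

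Start-site windows of 5 of these 7 genes are shown because the genes shared a direction. From RefSeq on GRCh38.p14, they lie at chr6:28224990-28225289 on the plus strand for ZSCAN9, chr6:28356222-28356521 on the minus strand for ZSCAN31, chr6:28349697-28349996 on the plus strand for ZKSCAN3, chr6:28259162-28259461 on the minus strand for ZKSCAN4 and chr6:28141633-28141932 on the plus strand for ZKSCAN8. Where a gene had several windows, the one farthest upstream was taken. Capitals have the same meaning as above.
ZSCAN9: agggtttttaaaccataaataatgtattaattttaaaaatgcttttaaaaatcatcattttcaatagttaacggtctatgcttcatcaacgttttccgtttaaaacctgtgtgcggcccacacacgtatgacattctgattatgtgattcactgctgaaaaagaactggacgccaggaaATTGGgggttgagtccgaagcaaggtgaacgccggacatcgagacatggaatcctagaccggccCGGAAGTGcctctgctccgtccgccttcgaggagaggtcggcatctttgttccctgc
ZSCAN31: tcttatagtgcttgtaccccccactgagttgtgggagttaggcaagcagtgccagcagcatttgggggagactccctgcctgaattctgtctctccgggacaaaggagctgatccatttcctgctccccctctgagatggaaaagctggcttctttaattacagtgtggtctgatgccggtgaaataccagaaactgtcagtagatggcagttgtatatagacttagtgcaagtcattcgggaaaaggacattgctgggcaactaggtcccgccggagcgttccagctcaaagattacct
ZKSCAN3: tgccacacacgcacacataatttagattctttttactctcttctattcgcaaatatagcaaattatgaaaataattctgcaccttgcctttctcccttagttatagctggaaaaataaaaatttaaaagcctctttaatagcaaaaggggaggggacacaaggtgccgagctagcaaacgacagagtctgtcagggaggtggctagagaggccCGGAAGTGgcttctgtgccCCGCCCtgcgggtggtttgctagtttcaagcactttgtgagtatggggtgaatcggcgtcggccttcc
ZKSCAN4: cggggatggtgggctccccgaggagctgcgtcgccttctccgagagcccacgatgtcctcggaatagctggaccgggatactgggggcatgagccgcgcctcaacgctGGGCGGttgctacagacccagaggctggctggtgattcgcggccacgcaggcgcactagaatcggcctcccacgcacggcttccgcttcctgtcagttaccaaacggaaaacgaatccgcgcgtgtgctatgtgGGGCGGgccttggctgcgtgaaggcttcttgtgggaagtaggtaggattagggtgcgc
ZKSCAN8: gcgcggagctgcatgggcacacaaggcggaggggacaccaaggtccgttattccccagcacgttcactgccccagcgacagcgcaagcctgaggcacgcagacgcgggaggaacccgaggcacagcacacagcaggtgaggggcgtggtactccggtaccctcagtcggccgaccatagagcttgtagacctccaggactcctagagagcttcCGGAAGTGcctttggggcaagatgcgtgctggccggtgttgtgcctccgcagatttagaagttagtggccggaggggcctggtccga
The windows of ZSCAN9, ZKSCAN3 and ZKSCAN8 each held CGGAAGTG, the core to which ETS factors bind, and those of ZSCAN31 and ZKSCAN4 did not. This motif was searched after the sequences had been seen. Over all members, it lay in windows of 7 of 22 ZSCAN and ZKSCAN genes (31.8%) and 4 of 35 ZBTB genes (11.4%), against 4.80% of all genes in the table. Outside the chromosome 6 run the SCAN genes with it were ZSCAN20, ZSCAN25 and ZSCAN5A, and within it ZSCAN12 too. GC boxes were fewer than in the ZBTB genes, in 15 of 22 SCAN genes (68.2%), and none lay in the shown windows of ZSCAN9, ZSCAN31 or ZKSCAN8. A TATAAA lay in windows of 8.77% of the zinc finger members, against 14.0% of all genes, and none of the shown windows held it.

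Members that share a start region or a name with a non-coding partner were set side by side. The windows of ZBTB47 and its antisense transcript ZBTB47-AS1 overlap on opposite strands, and their differences were 0.38 and 0.37. Another probe set of ZBTB47, below the floor at 27.7 against 40.5, gave -0.55, and the average of ZBTB47 was 0.004. The windows of ZBTB1 and ZBTB25 overlap likewise, with differences of -0.47 and -0.06. ZBTB44 overlaps the divergent ZBTB44-DT, which lay below the floor at the same value on both arrays. ZBTB11 was lower at 193 against 273, while ZBTB11-AS1 was higher at 68.5 against 48.3, with differences of -0.50 and 0.50. Of the 9 members that encode no zinc finger protein 6 were measurable, with a median of 0.17 and a range from -0.14 for ZSCAN16-AS1 to 0.50. ZBTB8OS, which encodes archease, a helper of the tRNA ligase, was at 483 against 431, a difference of 0.16. ZBTB20-AS1 was at 0.19, and the pseudogene ZSCAN12P1 had equal values. ZBTB46-AS1 and ZBTB7C-AS2 were below the floor.

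Relatives that carry the same domains under other names were set beside the members, and no difference from them was tested. The 7 BTB zinc finger genes BCL6, BCL6B, PATZ1, HIC1, HIC2, MYNN and GZF1 were all measurable. They were 5 above and 2 below 0, with a median of 0.13 and none called. Among all measurable genes 53.0% lay below 0 and 1.35% were called. PATZ1 was farthest above 0, at 376 against 269 with a difference of 0.48 and with 1 of its 4 other probe sets above the floor at -0.32. GZF1 and MYNN were both at -0.49, with a second probe set above the floor at 0.09 for GZF1 and -0.27 for MYNN. Of the SCAN domain genes, MZF1 was at 236 against 168, a difference of 0.49, and all of its other 3 probe sets were above 0. SCAND1 was at -0.17, with its other probe sets at -0.57 and -0.41, and PEG3 was below the floor.

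Co-repressors and chromatin partners of BTB, SCAN or KRAB zinc fingers were, as a list, close to 0. Of 31 genes 29 were listed and measurable, 14 above and 15 below 0, with a median of -0.03. Of all measurable genes 53.0% were below 0 and 1.35% were called. TRIM28, the co-repressor of KRAB zinc fingers, was the only one called, at 3284 against 1524, 2.15-fold higher. TRIM28 has no other probe set here. MTA1, a subunit of the NuRD complex, was at 620 against 322, a difference of 0.94, and its second probe set gave 1.31. HDAC4, a histone deacetylase bound by BTB proteins, was at 82.9 against 48.3, a difference of 0.78. Its other probe sets lay below the floor, and its average was 0.28. In the other direction, SIN3A, the scaffold of a deacetylase complex, was at 83.1 against 132, a difference of -0.67, with further probe sets at -0.52 and 0.00. CUL3, the ubiquitin ligase scaffold that BTB proteins bind, was at -0.12, and HDAC1, HDAC2 and HDAC3 at 0.18, 0.03 and -0.25.

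**Figure D5:**
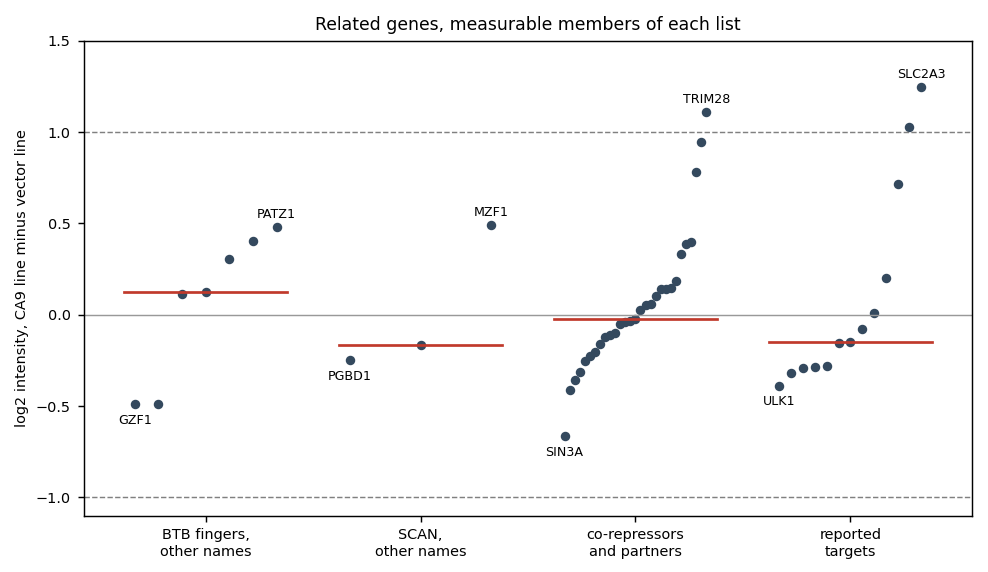
Differences (log2 intensity, CA9 line minus vector line) of the measurable genes of 4 lists of related genes, in order within each list, with a red line at the median, dashed lines at 2-fold and the names of the genes at each end. The medians are 0.13, -0.17, -0.03 and -0.15 from left to right, and TRIM28 and SLC2A3 are the named points past 2-fold.

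Genes known as direct targets of members were listed with earlier results of these arrays in view, so their directions are a description. Of 15 targets 13 were measurable, 5 above and 8 below 0, where 53.0% of all measurable genes were below 0. The 2 called, SLC2A3 and PKM, are both listed as genes that ZBTB7A represses, where 1.35% of all measurable genes were called. Because the list was drawn up with earlier results known, the number called says nothing about the targets. SLC2A3 was at 216 against 91.3, PKM at 2962 against 1450, and the third such gene, PFKP, at 541 against 538. Averages over their probe sets left SLC2A3 and PKM short of 2-fold, at 0.87 and 0.66. The autophagy and lysosome genes that ZKSCAN3 represses were below 0 in their brightest probe sets: ULK1 at -0.39, MAP1LC3B and WIPI2 at -0.29 and LAMP1 at -0.28. Of the 4 LAMP1 probe sets above the floor 2 were higher in the CA9 line, at 0.20 and 0.16, and its average was -0.067. CDCA7, which ZBTB24 activates, was at 939 against 1173, a difference of -0.32. CDKN1A, a target of ZBTB17, ZBTB2 and ZBTB5, was at 44.2 against 49.1, CDKN2B was at 42.6 against 26.0 and at least 1.04-fold higher against the floor, and WNT11, a Kaiso target, was at 0.20. SP1, MTFP1, MMP7 and AFP were between -0.15 and 0.06, the last 2 below the floor.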

How the data were processed

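Gene expression was measured on Affymetrix arrays in 1 sample of each line. The authors made the deposited intensities with RMA, per the submitters' processing notes; its version is not given in the sources used here. That method usually ends on a log2 scale, but the range of the values, from 6.79 to 17091 in the CA9 line, is linear, so log2 was taken, with no pseudocount.

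Symbols came from the platform annotation and were updated through Entrez identifiers to RefSeq genes of GRCh38.p14, which matched all 75 members and changed none of their symbols. A gene was represented by its brightest single-gene probe set, and the floor, the 2-fold call and the 1.5-fold size are as stated above. No test was possible with 1 array per line. Alternatives were 3 scalings, averaged probe sets, no _x_at or _s_at probe sets, no floor, a floor at the 75th percentile, a pseudocount of 16 and unchanged symbols. The lowess span was 0.3. The calling rule was checked on simulated data.

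The members and lists were chosen with earlier results of these data known. Full values were to be given for the 8 ZBTB, 4 ZSCAN and 4 ZKSCAN genes with the largest absolute difference, the 3 brightest of each family, called members and members of known role, and every other member may be named. Groups by role were drawn up after the files were seen. Some listed genes are not reported here. Markers of blood, endothelium, fibroblasts, liver and kidney gave 10 measurable genes, none called, where 1.35% of all measurable genes were. The scripts ran in Python 3.11.15 with pandas 2.3.3, numpy 2.4.6, statsmodels 0.14.6 for lowess and matplotlib 3.10.9 for plots.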

Additional observations from a re-analysis of the deposited data

Results flagged for a closer look

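Of the probe sets that the comparison by gene did not use, because a brighter one stands for the same gene, 2 were more than 2-fold higher in the CA9 line with both arrays above the floor. The second probe set of ZBTB17 had a difference of 1.40, and a probe set of ZBTB7A named _x_at one of 1.27. Of the other unused probe sets, that of ZBTB21 was past 2-fold on the lower side, at -1.15. The cause was not tested.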

How the results depend on the processing

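No paired analysis was possible because each line had 1 array, and no array could be left out. The medians of the 3 families stayed below 0 under all 9 alternatives. That of all measurable genes ran from -0.10 with a floor at the 75th percentile to 0.004 with the lowess curve removed. Averaging the probe sets of a gene brought the ZBTB median to -0.077 and the ZKSCAN median to -0.13, and leaving out the floor brought the ZSCAN median to -0.13. The count of zinc finger members at least 1.5-fold lower, 10 of 58 in the main setting, was 5 of 50 with averaged probe sets. It was 5 of 30 with a floor at the 75th percentile, 5 of 58 with a pseudocount of 16 and 13 of 58 with equal medians of the arrays. The shares of all measurable genes were 4.74% in the main setting and then, in that order, 2.75%, 5.46%, 3.18% and 6.92%. With the floor at the 75th percentile no member was 1.5-fold higher. ZBTB16 was no longer called with that floor (0 called higher) or with the pseudocount (0 called higher, ZBTB16 at 0.74). Without _x_at and _s_at probe sets 1 ZBTB gene was called lower, ZBTB21 at -1.15. Of 311 values of the 35 members named by rule, 11 moved by more than the SD between probe sets, 8 of them with averaged probe sets. Among the 311 are values under other floors and under unchanged symbols, which could not move. On the other side of 0 lay 14 values, 3 of the 11 among them. Those 3 were as follows: with averaged probe sets ZBTB17 was at 0.60 and ZSCAN5A at 0.15, and without _x_at and _s_at probe sets ZSCAN18 was at 0.16. With equal medians of the arrays, 36.2% of all genes past 1.5-fold were higher, in place of 52.7%, and 6.92% of measurable genes were at least 1.5-fold lower; the higher floor gave 39.9% higher. At 2-fold the split with equal medians was 35.9% higher in place of 48.4%. The number of arrays limits the precision, and many members lie close to the floor.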
